A study of Mus musculus with 9 samples.

Results

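Serinc2, Sgsm1, Slc4a11, Mical2, Fmnl1, Sytl2, Shd and Spin4 were the genes of mouse anterior cingulate cortex examined here, 8 of the 22180 genes that the arrays measured. They lie outside the classical pathways of sleep loss. They were selected on their intensities on these same arrays, for a level in sleep-deprived mice that stood apart from that of the other mice. The first 5 were higher after sleep deprivation and the remaining 3 lower. That pattern was what selected them, so every difference between the sleep-deprived mice and either other group is given as a description, without a test. Each gene was read by 1 probe set.

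Total RNA of microdissected cortex was hybridised to 9 Affymetrix arrays, 3 per group, from C57BL/6J mice, an inbred laboratory strain. Sleep-deprived mice were kept awake from ZT0, when the lights come on, to ZT12 by a bar turning at 1.5 rpm across the cage floor, with no injection given in the labels. Ketamine mice received 3 mg/kg of this NMDA receptor blocker intraperitoneally at ZT5, and saline mice received the vehicle in the same way. All mice were killed at ZT13, which was 1 h after the end of deprivation and 8 h after the injections. Any difference of the sleep-deprived group therefore holds wakefulness, the absence of an injection and the hour after deprivation together, and these cannot be told apart. In bulk tissue, fewer cells of a type and less RNA per cell cannot be told apart either. The labels give the replicates as biological, and the age and sex of the mice were not used here.

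Sleep loss in rodents is best known in cortex for raising activity-dependent, chaperone and stress-hormone-responsive transcripts and for altering synapses. The 8 genes lie beside these programmes. Serinc2 and Slc4a11 encode multipass membrane proteins, Sgsm1 and Sytl2 proteins that work with Rab GTPases, the switches that direct vesicle traffic. Mical2 and Fmnl1 encode proteins that take apart and build actin filaments, and Shd and Spin4 a signalling adaptor and a reader of histone methylation.

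The DNA just before the annotated starts of some of these genes is shown so that shared and unshared letters can be seen beside the expression values. RefSeq windows were at hand for 6 of the 8 genes, in 9 windows (build GRCm38.p6), and Slc4a11 and Sytl2 had no entry. The first window listed for each of 3 genes that were higher after sleep deprivation and 2 that were lower follows, as the 250 bases before the start, read 5′ to 3′ on the strand of the gene. Capitals mark TGACG, the core of the site bound by CREB, and CACGTG, the E-box bound by clock proteins, with both strands searched. Fmnl1, also higher after sleep deprivation, had a window with neither motif that is not printed. The later windows of Serinc2 and Sgsm1, also not printed, held neither. The printed windows alone therefore do not compare higher with lower genes.
Serinc2, chr4:130275587-130275836, minus strand: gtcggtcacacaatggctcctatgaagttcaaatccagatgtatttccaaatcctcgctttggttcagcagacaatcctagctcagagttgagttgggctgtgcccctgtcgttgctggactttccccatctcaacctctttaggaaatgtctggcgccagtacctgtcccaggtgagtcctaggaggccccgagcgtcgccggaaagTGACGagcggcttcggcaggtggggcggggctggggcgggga
Sgsm1, chr5:113310787-113311036, minus strand: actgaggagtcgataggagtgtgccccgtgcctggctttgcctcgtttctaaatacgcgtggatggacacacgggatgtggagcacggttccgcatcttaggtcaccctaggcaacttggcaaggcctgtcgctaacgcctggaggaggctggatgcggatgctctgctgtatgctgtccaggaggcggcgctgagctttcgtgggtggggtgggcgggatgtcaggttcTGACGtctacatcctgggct
Mical2, chr7:112225586-112225835, plus strand: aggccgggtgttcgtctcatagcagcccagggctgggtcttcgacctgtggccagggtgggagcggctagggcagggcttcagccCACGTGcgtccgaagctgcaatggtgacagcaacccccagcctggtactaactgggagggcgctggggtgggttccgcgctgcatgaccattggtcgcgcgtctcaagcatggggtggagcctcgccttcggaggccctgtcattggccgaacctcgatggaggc
Shd, chr17:55970232-55970481, plus strand: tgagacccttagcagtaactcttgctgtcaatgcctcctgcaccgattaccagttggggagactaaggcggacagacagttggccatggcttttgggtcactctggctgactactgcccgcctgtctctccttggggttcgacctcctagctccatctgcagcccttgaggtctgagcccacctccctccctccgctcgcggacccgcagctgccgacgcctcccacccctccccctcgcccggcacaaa
Spin4, chrX:95026683-95026932, minus strand: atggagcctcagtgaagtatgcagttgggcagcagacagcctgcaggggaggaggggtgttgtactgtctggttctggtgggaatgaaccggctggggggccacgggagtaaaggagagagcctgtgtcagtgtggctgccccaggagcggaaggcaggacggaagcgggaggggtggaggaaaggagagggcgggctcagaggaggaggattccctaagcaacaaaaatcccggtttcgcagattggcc

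TGACG was in 2 of the 9 windows, 42 bases before the first listed start of Serinc2 and 20 bases before that of Sgsm1. It was in no window of the other 4 genes. Of all 32851 windows of the same length, 17.8% held it. The full palindrome TGACGTCA, which contains TGACG and which 1.55% of all windows held, was in 0 of the 9. CACGTG was in 1 of the 9, 165 bases before the start of Mical2, against 6.02% of all windows. TGANTCA, the AP-1 site bound by Fos and Jun proteins, was in 1 of the 9, the second window of Sgsm1, against 6.75% of all windows. The CArG box, bound by the serum response factor SRF, was in 0 of the 9, against 1.47%. TATAAA was also in 0 of the 9, against 12.4%, and GGGCGG, the GC box, was in 4 of them, against 32.7%. These matches describe letters in the windows and are not evidence of binding.

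All intensities below are linear values as deposited. Differences are of log2(intensity + 16) ± SE from a limma fit of all 9 arrays, with n = 3 per group. The offset of 16 understates the change of dim probe sets, chiefly of Slc4a11 and Spin4.

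Serinc2 encodes a member of a family of membrane proteins named for a role in bringing serine into membrane lipids. It read 237, 246 and 233 in sleep-deprived mice, against 152, 182 and 143 in ketamine mice and 147, 162 and 151 in saline mice. Every sleep-deprived array was above every other array, and the lowest of them exceeded the highest saline array by 44.1%. The difference was 0.59 ± 0.10 from saline and 0.55 ± 0.10 from ketamine, a mean intensity 1.56 times that of saline. The sleep-deprived arrays lay closer together (SD 6.81) than the ketamine arrays (SD 20.6), where array 2 stood highest.

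Slc4a11, a membrane transporter whose loss causes a corneal endothelial dystrophy in humans, was the other membrane protein gene. It read 124, 116 and 109 in sleep-deprived mice, against 81.5, 65.6 and 66.5 in ketamine mice and 72.3, 76.6 and 77.4 in saline mice. Again the sleep-deprived arrays did not overlap the others. The difference was 0.53 ± 0.10 from saline and 0.61 ± 0.10 from ketamine, and the value against ketamine was the largest of the 8 genes. In mean intensity this was 1.55 times saline and 1.64 times ketamine.

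Sgsm1 encodes a protein with a TBC domain, the fold through which many proteins switch Rab GTPases off. It read 772, 773 and 637 in sleep-deprived mice, against 496, 486 and 466 in ketamine mice and 481, 467 and 497 in saline mice. Ketamine and saline arrays interleaved, and sleep-deprived array 3 lay below the other sleep-deprived arrays but 28.1% above the highest saline array. The difference was 0.57 ± 0.10 from saline and 0.57 ± 0.10 from ketamine.

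Sytl2 encodes a synaptotagmin-like protein that binds Rab27 and tethers vesicles to the plasma membrane. It was lower after sleep deprivation, with 467, 523 and 514 in sleep-deprived mice, against 689, 619 and 549 in ketamine mice and 677, 688 and 730 in saline mice. The highest sleep-deprived array was 4.57% below the lowest ketamine array, a small gap, and the ketamine arrays reached from that edge into the saline range. The difference was -0.47 ± 0.10 from saline and -0.29 ± 0.10 from ketamine. With each array centred on its median, the sleep-deprived and ketamine groups of Sytl2 overlapped.

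Mical2 encodes a monooxygenase that oxidises actin and thereby takes filaments apart, and that acts in the nucleus on the SRF coactivator MRTF. It read 2561, 2530.2 and 2262 in sleep-deprived mice, against 1803, 1866 and 1772 in ketamine mice and 1769, 1915 and 1843 in saline mice. The lowest sleep-deprived array was 18.2% above the highest saline array. The difference was 0.41 ± 0.09 from saline and 0.43 ± 0.09 from ketamine, or 1.33 times the mean intensity of saline mice.

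Fmnl1 encodes a formin, a protein that elongates unbranched actin filaments and that is best known from white blood cells. It read 641, 643 and 508 in sleep-deprived mice, against 394, 432 and 394 in ketamine mice and 444, 489 and 475 in saline mice. Sleep-deprived array 3 was 4.03% above the highest saline array, the narrowest gap to saline among the 8 genes. Fmnl1 had 3 separate levels, with ketamine below saline and no overlap. The difference was 0.33 ± 0.11 from saline and 0.53 ± 0.11 from ketamine. Without sleep-deprived array 3 the difference from saline was 0.44.

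Shd encodes an adaptor protein that docks on phosphorylated tyrosines through its SH2 domain. It read 275, 290 and 284 in sleep-deprived mice, against 310.2, 319 and 330.0 in ketamine mice and 368, 359 and 364 in saline mice. The 3 groups formed 3 steps without overlap, sleep-deprived lowest and saline highest, and each group was tight, with an SD of 7.47, 9.92 and 4.74. The difference was -0.34 ± 0.08 from saline and -0.17 ± 0.08 from ketamine, the smallest of the 8 genes against ketamine.

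Spin4, a gene of the X chromosome, encodes a spindlin, a protein whose Tudor-like domains bind methylated histones. It read 50.9, 50.9 and 65.0 in sleep-deprived mice, against 76.2, 74.5 and 90.4 in ketamine mice and 77.2, 86.1 and 81.4 in saline mice. The sleep-deprived arrays were lowest, with array 3 nearer to the rest, and ketamine and saline overlapped. The difference was -0.45 ± 0.11 from saline and -0.43 ± 0.11 from ketamine. All of these values lay below the median intensity of the arrays, which was 97.7 to 106.

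**Figure D1:**
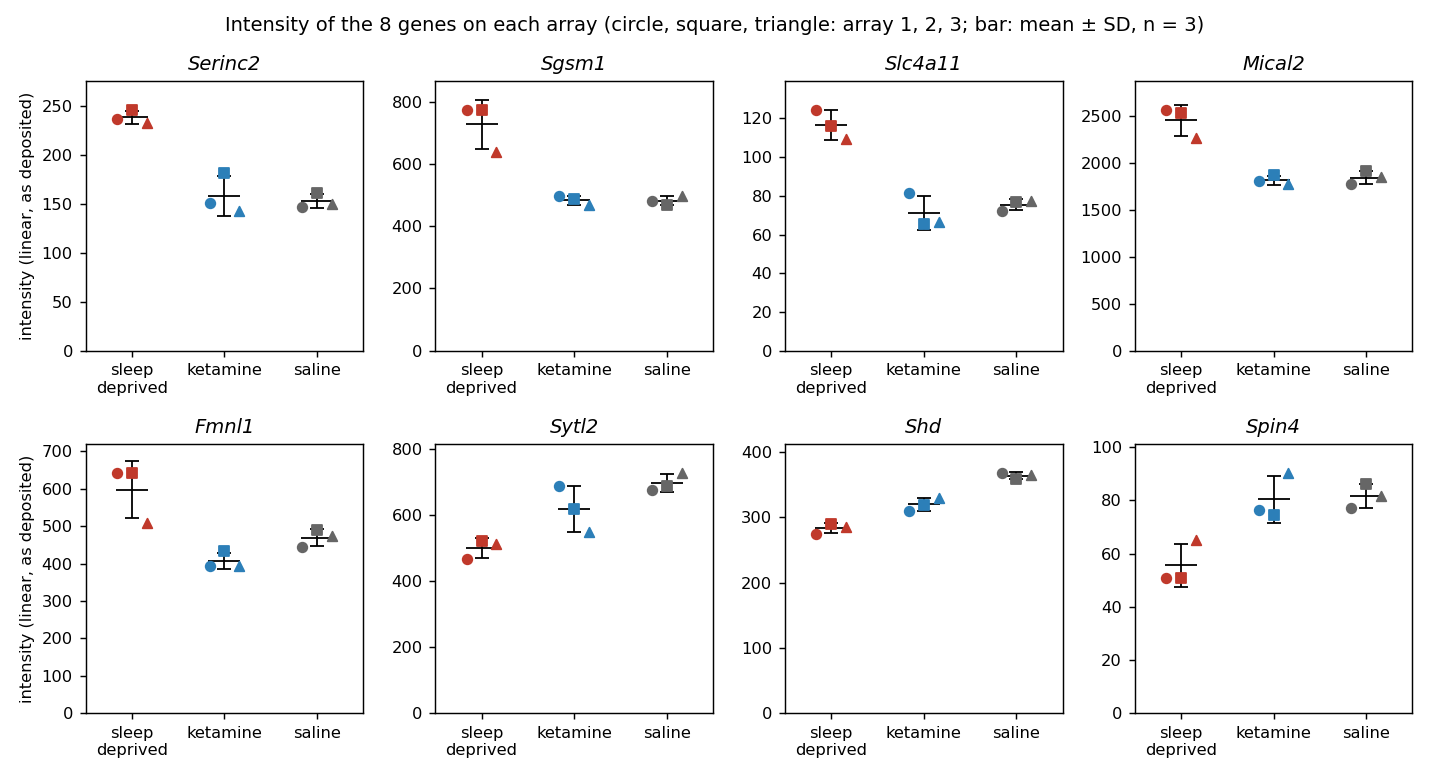
Linear intensity of each of the 8 genes (y axis, from 0) in sleep-deprived, ketamine and saline mice (x axis), with circle, square and triangle for arrays 1, 2 and 3 and a bar for the mean ± SD of 3 arrays. In each panel the 3 sleep-deprived points lie outside the other 6, narrowly so for Sytl2 against ketamine and for Fmnl1 against saline.

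In all 8 genes the sleep-deprived group lay outside the ketamine and the saline group in the direction of the choice. Over all genes, sleep-deprived arrays lay above saline without overlap in 3.57% and below in 3.54%, and above ketamine in 5.54% and below in 4.53%. They lay above both groups in 1.62% of genes and below both in 0.974%. As the rule used these contrasts, nothing is read from the count. At adjusted p under 0.05 limma called 0 of the 22180 genes between sleep deprivation and saline (0%) and 0 between sleep deprivation and ketamine (0%), with 781 and 2103 genes at unadjusted p under 0.05, the count against ketamine being 4.38% of genes higher and 5.10% lower after sleep deprivation. By size of difference from saline, the 8 genes ranked from 23 (Serinc2) to 311 (Fmnl1). Against ketamine they ranked from 51 (Slc4a11) to 5916 (Shd), with Sytl2 at 1391. These ranks come from the contrasts that the choice used.

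Of the comparisons, the one between ketamine and saline was not used to pick the genes, although it shares its arrays with those that were, and a choice of genes that separate sleep deprivation from both other groups favours genes in which ketamine and saline lie close. None of the 8 genes passed it (0 of 8 by limma, where 0% of all genes were called), and 0 of the 8 had an unadjusted p under 0.05, where 2.21% of all genes were higher and 2.35% lower. The smallest unadjusted p of the 8 belonged to Shd, at -0.18 ± 0.08 (unadjusted p = 0.0526 and adjusted p = 0.870 by limma), with ketamine below saline on 3 of 3 arrays. Its adjusted p lay between 0.0499 and 1.00 over the alternatives, and only array weights, which gave ketamine array 2 a weight of 7.92, took it past the threshold. Fmnl1 was at -0.20 ± 0.11 (adjusted p = 0.870), also without overlap, and Sytl2 at -0.18 ± 0.10 (adjusted p = 0.870), with overlap. Over all genes, ketamine arrays lay below saline without overlap in 7.89% and above in 6.48%.

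For the other 5 genes the ketamine and saline arrays overlapped. Serinc2 differed by 0.040 ± 0.10 (95% interval -0.17 to 0.25), Sgsm1 by 0.00336 ± 0.10 (-0.21 to 0.21), Slc4a11 by -0.073 ± 0.10 (-0.28 to 0.14), Mical2 by -0.022 ± 0.09 (-0.21 to 0.17) and Spin4 by -0.021 ± 0.11 (-0.25 to 0.21). Their adjusted p from limma lay between 0.895 and 0.996. Array weights moved Serinc2 to 0.20 (adjusted p = 0.0821 by limma, and up to 1.00 over the alternatives), Slc4a11 to -0.15 and Spin4 to -0.089, and none of these passed the threshold. A miss of the threshold does not show equal levels, and each interval gives the differences that these arrays leave possible.

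**Figure D2:**
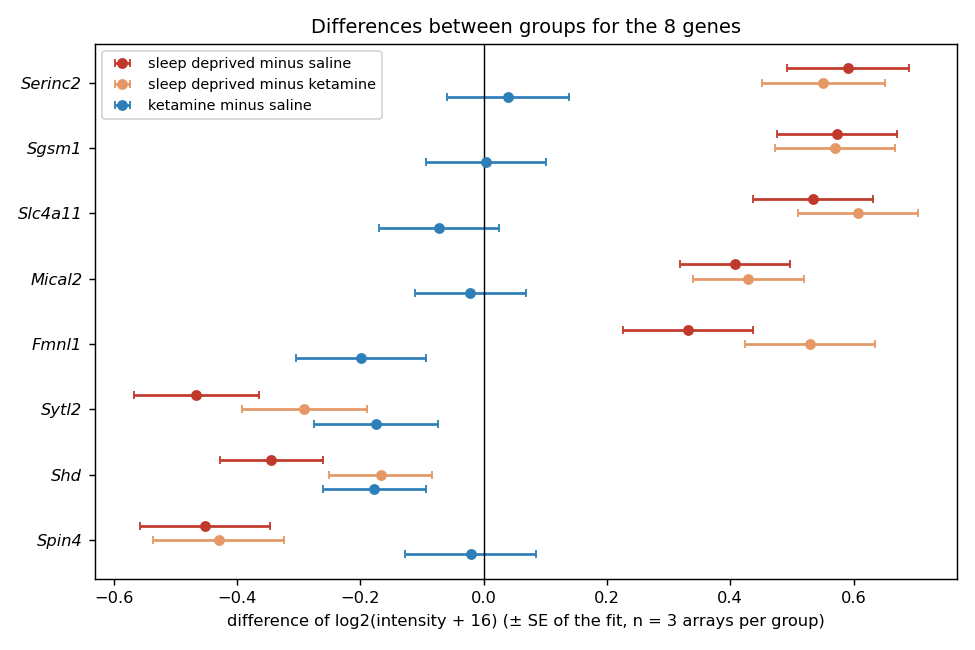
Differences between groups of log2(intensity + 16) for the 8 genes (x axis, ± SE of the limma fit, n = 3 arrays per group), with red for sleep-deprived minus saline, orange for sleep-deprived minus ketamine and blue for ketamine minus saline. The blue points of Serinc2, Sgsm1, Slc4a11, Mical2 and Spin4 lie within 0.073 of 0, and those of Fmnl1, Sytl2 and Shd between -0.20 and -0.18.

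The sleep-deprived arrays were not alike. Array 3 was the one nearest to the other groups for 6 of the 8 genes and array 2 for the remaining 2, Sytl2 and Shd. Averaged over the 8 genes, each standardised over the 9 arrays and with the sign of the lower genes turned, the sleep-deprived arrays stood at 1.50, 1.33 and 0.80 SD, against -0.52, -0.39 and -0.70 SD in ketamine mice and -0.74, -0.60 and -0.67 SD in saline mice. Without sleep-deprived array 3 the difference from saline was 0.66 for Sgsm1, 0.57 for Slc4a11, 0.46 for Mical2 and -0.54 for Spin4.

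Deviations of each array from the mean of its own group showed how the genes varied together within groups. They are not independent of the choice of genes, since a separation of groups on the same arrays also limits the spread within groups. These correlations over 9 arrays leave 6 degrees of freedom, share the arrays and their scaling, and are given as a description. Differently numbered arrays of different groups also correlated in their deviations, from -0.51 to 0.54. The correlations of the gene pairs below were not compared with those of pairs of other genes. Whether they go beyond variation that the arrays share was not tested. The pair Mical2 and Fmnl1, the actin regulators, had the highest at r = 0.97, and r = 0.94 over the 6 arrays without the sleep-deprived group. Sgsm1 followed with Fmnl1 (r = 0.82) and with Mical2 (r = 0.75), but without the sleep-deprived arrays these were -0.026 and -0.071. The lowest was Sgsm1 with Spin4, at -0.87, and -0.73 without the sleep-deprived arrays. Of the 13 pairs of genes that differed in the same direction after sleep deprivation 10 were above 0 (median 0.38), and of the 15 pairs that differed in opposite directions 3 were (median -0.22). Over the 6 arrays without the sleep-deprived group the split was smaller, with 7 of the 13 pairs above 0 (median 0.062) and 5 of the 15 (median -0.20), those 5 being Sytl2 with each of the higher genes.

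Genes with the most similar course over the 9 arrays were sought among genes brighter than the median gene, by Pearson correlation of log2 values. In 22 of the 25 such genes the sleep-deprived arrays lay outside both other groups, so r largely describes that step. The exceptions were Irs2, which overlapped saline, and Naglu and Hjv, which overlapped ketamine. Closest to the mean course of the 8 genes were Sh2d5, a neuronal adaptor gene (r = 0.97), Slit1, an axon guidance ligand (0.97), Sorcs3, a neuronal sorting receptor (0.96), Blnk, an adaptor of immune cells (0.95), and Kcnip3, a calcium sensor that binds potassium channels and DNA (0.95). Sorcs3 read 781, 807 and 660.4 in sleep-deprived mice, against 537, 529 and 505 in ketamine mice and 539, 544 and 586 in saline mice. Like Sgsm1, it was lowest in array 3 among the sleep-deprived arrays. Sh2d5 read 598, 610.5 and 547 in sleep-deprived mice, against 475, 473 and 451 in ketamine mice and 484, 461 and 475 in saline mice, and it was also the gene closest to Sgsm1 (r = 0.99).

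Running opposite to the mean course were Mfsd4a, a membrane transporter (-0.92), the transcripts A930002C04Rik (-0.92) and E130317F20Rik (-0.91), Kcnip4, a relative of Kcnip3 (-0.91), and Gpr183, an oxysterol receptor (-0.90). Kcnip3 and Kcnip4 thus lay on opposite sides of 0, at 0.28 ± 0.09 and -0.25 ± 0.08 from saline after sleep deprivation. Kcnip3 read 1375, 1285 and 1242 in sleep-deprived mice, against 1149, 1121 and 1037 in ketamine mice and 1089, 1039 and 1078 in saline mice. Kcnip4 read 1409, 1473 and 1403 in sleep-deprived mice, against 1662, 1565 and 1634 in ketamine mice and 1672, 1682 and 1762 in saline mice. For both, the sleep-deprived arrays lay outside all others.

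Single genes had their own nearest neighbours. Serinc2 ran closest to Spns2, the exporter of sphingosine-1-phosphate (r = 0.97), and to Blnk and Mical2 (both 0.96). Mical2 ran closest to Sgsm1 (0.98), Sorcs3 (0.97) and Blnk (0.97), and Sgsm1 after Sh2d5 to Sorcs3 and Mical2 (both 0.98). Slc4a11 ran closest to the scaffold gene Iqgap2 (0.97), the scavenger receptor gene Stab1 (0.97) and Mdga1, a surface protein of synapses (0.96). Fmnl1 ran closest to Fscn1, which encodes the actin-bundling protein fascin (0.97), Ankrd50 (0.96) and the insulin receptor substrate gene Irs2 (0.96), which read 686, 707 and 569 in sleep-deprived mice, against 473, 477 and 479 in ketamine mice and 548, 607 and 562 in saline mice.

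Among the lower genes, Sytl2 ran closest to Omg, a myelin and neuronal surface glycoprotein gene (r = 0.98), Ppm1k, a mitochondrial phosphatase gene (0.97), and Lrrtm4, a synaptic adhesion gene (0.96). Shd ran closest to the lysosomal enzyme gene Naglu (0.95), Ciart, a repressor of the circadian clock (0.91), and Kcnip4 (0.91). Ciart read 256, 335 and 245 in sleep-deprived mice, against 361, 336 and 359 in ketamine mice and 419, 407 and 426 in saline mice, in 3 steps like Shd but with sleep-deprived array 2 at the edge of the ketamine range. Spin4 ran closest to Hrct1 (0.94), Hjv (0.93) and Crnde (0.92), all dim or moderate probe sets with mean intensities from 132 to 231.

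**Figure D3:**
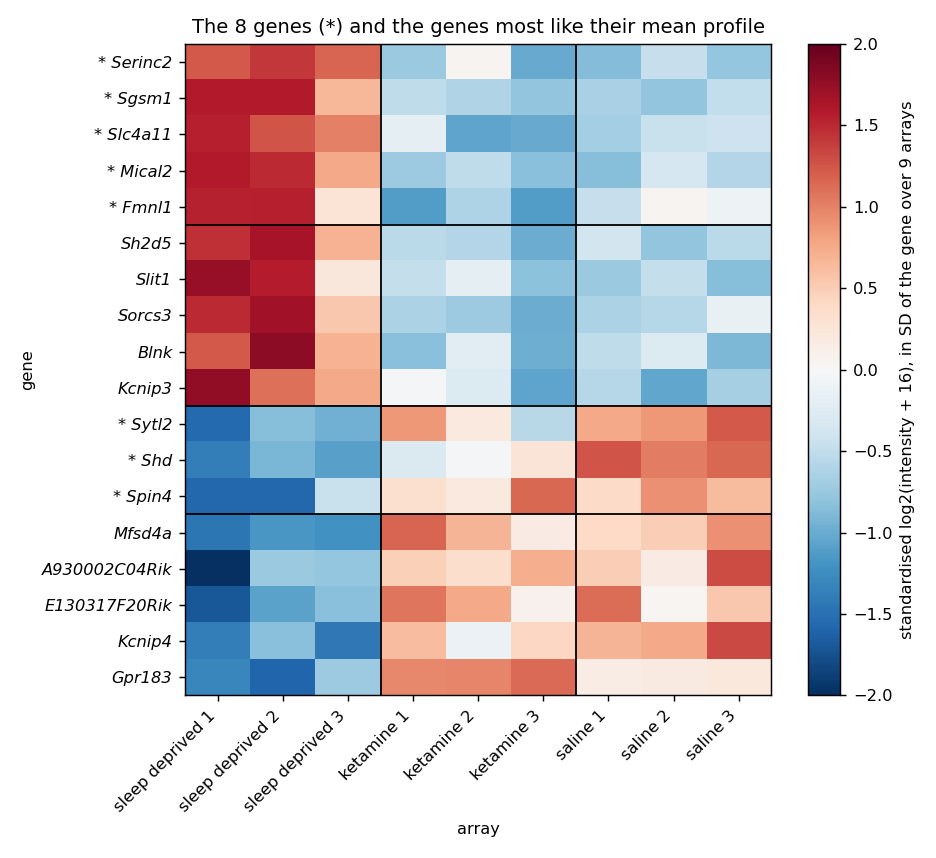
Standardised log2(intensity + 16) of the 8 genes (marked *) and of the 5 genes most like and 5 most opposite to their mean profile (rows) on the 9 arrays (columns, sleep-deprived, ketamine and saline), with red above and blue below the mean of the gene. The sleep-deprived columns stand apart from the other 6, and sleep-deprived array 3 is the palest of them in most of the upper rows.

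Relatives of the 8 genes were spread around 0. The 9 lists of relatives and partners held 95 other measured genes, of 98 listed. Between sleep deprivation and saline 44 of the 95 were higher and 51 lower, with a median difference of -0.022, beside -0.00881 over all genes. limma called 0 of them at adjusted p under 0.05. At unadjusted p under 0.05, 2 were higher and 0 lower, where 1.80% and 1.72% of all genes were. Sleep-deprived and saline arrays did not overlap in 5 of the 95 that were higher and 3 that were lower, beside 3.57% and 3.54% of all genes. The differences lay between -0.20 (Tbc1d30) and 0.31 (Inf2).

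Among the serinc genes, Serinc1, Serinc3 and Serinc5 lay between -0.087 and 0.039 from saline after sleep deprivation, Serinc5 being the lowest at -0.087 ± 0.10. The 8 other measured genes of the bicarbonate transporter family lay between -0.18 (Slc4a5) and 0.15. Among 30 other Rab GTPase-activating genes of the TBC class 13 were higher and 17 lower, with Tbc1d8 at 0.24 ± 0.11 (unadjusted p = 0.0436, adjusted p = 1.00 by limma). Tbc1d8 read 229.6, 276 and 217 in sleep-deprived mice, against 224, 192 and 188 in ketamine mice and 198, 196 and 209.6 in saline mice. Tbc1d10c was at -0.061 ± 0.15 from saline and -0.38 ± 0.15 from ketamine. Of 12 other genes of Rab27 and its effectors 6 were higher and 6 lower, in a range of -0.081 to 0.11, with Sytl5 at 0.11 ± 0.15 and Sytl4 at -0.078 ± 0.11.

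The MICAL relatives Mical1, Mical3, Micall1 and Micall2 lay between -0.029 (Micall2) and 0.047 (Micall1) from saline. Of 20 genes for SRF, its coactivators and their cytoskeletal targets 11 were higher and 9 lower, with a median of 0.021. Among them Myh9, a non-muscle myosin, was at 0.21 ± 0.11 from saline and 0.41 ± 0.11 from ketamine (adjusted p = 0.375 by limma), Ccn2 at 0.18 ± 0.09 from saline and Cnn1 at 0.037 ± 0.11. Of 12 other formins 5 were higher and 7 lower, and Inf2 was nearest to Fmnl1, at 0.31 ± 0.14 (unadjusted p = 0.0384, adjusted p = 1.00 by limma). Inf2 read 311, 300.4 and 281 in sleep-deprived mice, against 238, 317 and 203 in ketamine mice and 210.2, 241 and 261 in saline mice, so that it overlapped ketamine. The formins Diaph1 and Fhod3 were at -0.10 ± 0.10 and -0.11 ± 0.09, and Diaph1 was at -0.25 ± 0.10 in ketamine against saline mice. Shb, an adaptor relative of Shd, was at 0.15 ± 0.09, opposite in sign to Shd. The relatives Shf (-0.13 ± 0.10) and She (-0.060 ± 0.12) had the sign of Shd. Spin2c, a relative of Spin4, was at -0.11 ± 0.10.

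**Figure D4:**
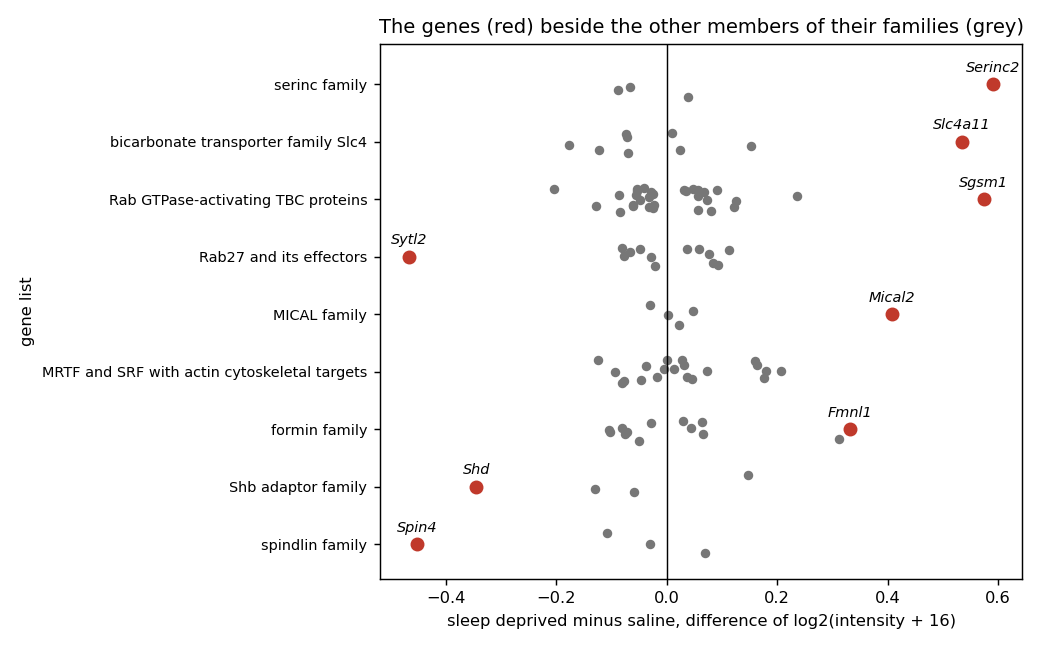
Sleep-deprived minus saline difference of log2(intensity + 16) (x axis) for the 8 genes (red) and the other measured genes of their family lists (grey, with vertical scatter for legibility), 1 list per row. The grey points lie between -0.20 and 0.31, and the red points lie outside the grey ones of their own row.

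Markers of several cell types moved with the sleep-deprived group, and their part in the 8 differences was not tested. All 8 of 8 endothelial markers were higher than in saline mice (median 0.15), Vwf at 0.41 ± 0.12 and Pecam1 at 0.19 ± 0.09. Their summed intensity was 2454 to 2641 in sleep-deprived mice, against 1993 to 2400 in ketamine mice and 2187 to 2407 in saline mice, without overlap. The oligodendrocyte markers were lower in 7 of 7, with a median of -0.20 and sums of 3457 to 4495 in sleep-deprived mice, against 3524 to 6185 in ketamine mice and 4019 to 4956 in saline mice. Microglial markers summed to 2501 to 2664 in sleep-deprived mice, against 2338 to 2485 in ketamine mice and 2343 to 2570.2 in saline mice, which they overlapped. Of these markers 6 of 8 were higher than in saline mice, but with a median of only 0.014. C1qb was at 0.30 ± 0.10 and P2ry12 at -0.26 ± 0.13.

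Markers of choroid plexus and ependyma were lower in 8 of 8, with sums of 658 to 1171 in sleep-deprived mice, against 857 to 1187 in ketamine mice and 771 to 9612 in saline mice. Saline array 2 made the upper end, with Ttr at 8428, against 89.5 to 428 in sleep-deprived mice and 138 to 467 in ketamine mice. Saline array 1 also lay above every sleep-deprived and ketamine array, with Ttr at 1624 and a sum of 2325. Leaving out saline array 2 could not change a direction among the 8 genes against saline, as those groups did not overlap. Without that array Serinc2 was at 0.63. Clic6 of this list was at -0.32 ± 0.14 from saline. Meningeal, mural, neuronal and astrocytic sums overlapped between sleep-deprived and saline mice, as did those of striatal projection neurons, the cells of the neighbouring region. Against ketamine, the meningeal sums of 1418 to 1472 in sleep-deprived mice lay above the 1309 to 1400.3 in ketamine mice. Other markers at unadjusted p under 0.05 against ketamine were Cldn5 (0.30 ± 0.11), Flt1 (0.28 ± 0.10), Kdr (0.23 ± 0.10) and Cdh5 (0.24 ± 0.11) of endothelium, Nefl (0.23 ± 0.09) of neurons, Fgfr3 (0.24 ± 0.10) of astrocytes, Ogn (0.46 ± 0.20) of meninges and Aqp1 (-0.23 ± 0.10) of choroid plexus. The neuronal markers, which define the labelled tissue as brain, summed to 22814 to 23598 in sleep-deprived mice, against 22478 to 24801 in ketamine mice and 22692 to 23965 in saline mice. No marker of the 9 lists was at 0, but the lowest value was 45.4 (Clic6), below the array medians of 97.7 to 106. A value above 0 does not by itself show that a marker was detected.

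**Figure D5:**
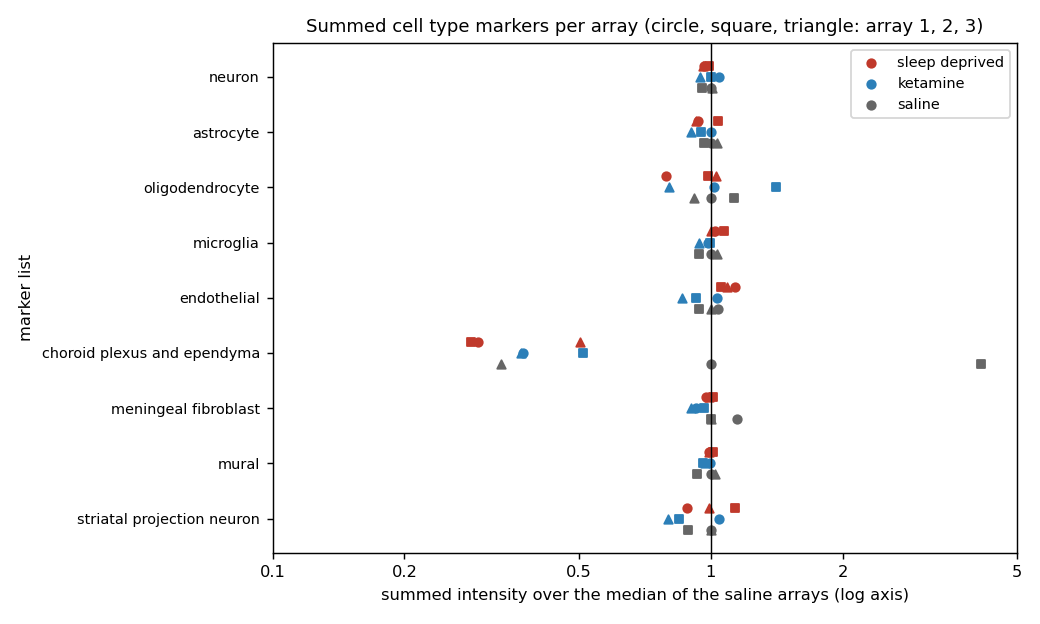
Summed intensity of 9 cell type marker lists on each array, relative to the median of the 3 saline arrays (x axis, log scale), with red for sleep-deprived, blue for ketamine and grey for saline mice. The endothelial sums of the 3 sleep-deprived arrays lie right of all others, and the choroid plexus sums spread most, up to saline array 2.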

How the data were processed

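The authors deposited 1 linear intensity per probe set and array, made with PLIER 2.0 in Affymetrix Expression Console 1.1.1 per the submitters' processing notes (41345 probe sets, 9 arrays). Any correction of background or between arrays is not given in the sources used. Probe sets with 1 gene symbol (23521) were named from the platform annotation, updated through RefSeq for 23328, and the brightest probe set stood for each of 22180 genes. Intensities were analysed as log2(intensity + 16) with limma 3.58.1 in R 4.3.3, all 9 arrays in 1 fit with 6 residual degrees of freedom and no covariate, and Benjamini-Hochberg adjustment over all genes at 0.05. The fit was tested on simulated data. Array medians lay between 97.7 and 106, and 3 arrays per group limit the precision. No batch was recorded in the labels used here.

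The 8 genes and the 18 lists (9 of relatives and partners, 9 of cell type markers) were chosen with earlier results of these data known. From the lists, genes at unadjusted p under 0.05 in any comparison were named, and 1 further gene per list of relatives with the largest difference between sleep deprivation and saline. The 3 genes of highest correlation were named for each of the 8, and 5 each for and against their mean profile. The 20 alternatives covered offset, normalization, filter, probe set choice, variance model, array weights, groups in the fit, the replicate number as a block, and leaving out each array.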

Additional observations from a re-analysis of the deposited data

How the results depend on the processing

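Against saline and against ketamine, the differences of the 8 genes after sleep deprivation kept their sign under all 20 alternatives (19 for Spin4, which the removal of the dimmest 33.3% of genes left out). The groups stayed apart in 8 of 8 genes except that this filter left 7, and that centring on array medians left 7 against ketamine. Most alternatives could not give another result. Groups that do not overlap keep their order under another offset, variance model, weighting or block, and with an array left out. Each gene had 1 probe set, so that choice changed nothing either. Only the normalizations could make groups overlap, and the genes were picked for this separation, so neither result is evidence for them. With an offset of 64 the difference from saline was 0.48 for Serinc2, 0.37 for Slc4a11, -0.30 for Shd and -0.29 for Spin4, since a larger offset shrinks dim genes. Calls over all genes between sleep deprivation and saline numbered 1 with median centring, 3 with limma-trend and 0 to 4 with an array left out. Between sleep deprivation and ketamine they numbered 14 with an offset of 64, 5 without the dimmest genes, 15 with limma-trend, 42 with array weights, and 0 to 214 with an array left out, the highest without sleep-deprived array 3. The cause was not tested. Between ketamine and saline, array weights called 1439 of the 22180 genes, 1 of the 8 among them (Shd, -0.18), and every other alternative called 0. That fit gave ketamine array 2 a weight of 7.92, and nothing is read from the 1 call.

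Deviations of same-numbered arrays correlated from -0.20 to 0.44, over 0.1 in 2 of 9 pairs. Those of differently numbered arrays of different groups ran from -0.51 to 0.54, over 0.1 in 4 of 18 pairs. These values gave no sign that the replicate numbers pair the arrays, and what the correlated arrays share was not tested. With the replicate block limma called 0 genes in each comparison, and 887, 2457 and 1254 at unadjusted p under 0.05 (sleep deprivation against saline, against ketamine, and ketamine against saline). Small differences changed sign. Ketamine minus saline was 0.016 for Mical2 with quantile normalization and 0.017 with array weights, and -0.00494 for Sgsm1 with median centring. With an array left out it ran from -0.018 to 0.027 for Sgsm1, -0.050 to 0.00630 for Mical2, -0.095 to 0.022 for Spin4 and -0.054 to 0.11 for Serinc2. Sleep deprivation minus saline was -0.020 for Cnn1 with array weights, and for Ogn, a meningeal marker, 0.00164 with an offset of 1, 0.00615 with quantile normalization, 0.00883 with median centring and 0.059 with array weights. With an array left out it ran from -0.075 to 0.038 for Micall2, -0.029 to 0.092 for Micall1, -0.29 to 0.23 for Ogn, -0.29 to 0.000573 for Slc4a5, -0.023 to 0.093 for Cnn1, -0.25 to 0.041 for Tbc1d10c, -0.21 to 0.00445 for Sytl4 and -0.015 to 0.32 for Sytl5.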
